A study of Homo sapiens with 16 samples.

Results

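The genes described here are those whose mRNA was high at 6 h in K562 cells treated with phorbol 12-myristate 13-acetate (PMA). Their levels were far lower before treatment and again at 24, 48 and 72 h. The highest mean lay at 6 h for 44 of them, at 3 h for 14 and at 1.5 h for 1. The genes were chosen by level alone. A protein-coding gene was taken when its mean at 6 h was at least 10 CPM (the gene's reads scaled to 1e+06 assigned reads in its library), at least 3 times its mean at 0 h and at least 3 times its mean at each of 24, 48 and 72 h, with both 6 h libraries above all libraries of those 4 times. The criteria were met by 59 genes of 35052 genes with a matched transcript, of which 19801 are protein-coding. K562 is an established human leukaemia line with erythroid and megakaryocytic features. The cells were wild type, were grown in RPMI with fetal bovine serum and received 25 nM PMA, and the medium was changed after 24 and 48 h. Ribosomal RNA was removed from total RNA before library preparation. There were 2 untreated libraries (0 h) and 2 at each of 7 later times: 0.5, 1.5 and 3 h, then 6 h, then 24, 48 and 72 h. The 0 h libraries are the untreated reference. No vehicle series, other dose or other cell line enters these comparisons, so time in culture and time in PMA cannot be told apart.

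PMA stands in for diacylglycerol and activates protein kinase C, which in turn activates the ERK kinases and, in many cells, NF-kappaB. Genes that respond to such a stimulus without new protein synthesis are called primary response genes. The fastest of them encode transcription factors such as FOS and the EGR proteins, and slower ones encode secreted ligands, cytoskeletal proteins and inhibitors of signalling. Many of their mRNAs are short-lived, and their 3′ untranslated regions often carry AU-rich elements, so that their levels can fall soon after transcription stops.

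The libraries held between 27285773 and 54056289 assigned reads. Replicates were alike, with Pearson correlations of log2 CPM between 0.9845 and 0.9925, and all 12 markers of K562 and the erythroid lineage were above 1 CPM in every library. Their sum was 2311 to 2567 CPM before PMA, 1503 to 1790.0 after 6 h and 1124 to 1257 after 24 h. It was higher again later, at 1708 to 1952 CPM after 48 h and 1559 to 1926 after 72 h. At 6 h, 8 of the 12 were lower than at 0 h and 0 were higher, against 29.4% and 27.8% of all genes tested (edgeR adjusted p under 0.05). GATA1, a master factor of the erythroid lineage, went from 118 and 165 CPM before PMA to 7.98 and 8.27 after 6 h and 77.7 and 76.3 after 24 h. The erythroid factor KLF1 went from 48.3 and 65.3 CPM before PMA to 1.17 and 1.14 after 6 h and stayed low, at 2.81 and 2.23 after 48 h. NFE2 went from 86.9 and 105 CPM before PMA to 1.47 and 1.67 after 6 h and 43.9 and 45.9 after 48 h. GATA1 and NFE2 were thus lowest at 6 h, the time of the pulse, and the part of this in the pulse was not tested. The labels do not state whether the 2 libraries of a time came from separate cultures, so the p-values below measure only the spread between these libraries, which may be technical. CPM is a share of the library. The median gene of 14216 genes averaging 1 CPM or more stood -0.35 log2 units from its 0 h value at 6 h and -0.22 units at 24 h on this scale, and the fold changes of the test below are relative to such a shift because they use TMM scaling. These are bulk RNA measurements: fewer cells with a transcript and less of it per cell cannot be told apart. Of 6 epithelial markers, 3 were above 1 CPM in every library (EPCAM, CDH1 and KRT19), none was at 0 in all libraries, and their sum ran from 126 to 133 CPM before PMA to 344 to 367 CPM after 6 h and 370.2 to 427 CPM after 24 h, mostly through KRT19. The part of this in the pulse was not tested. Of 6 fibroblast markers, 2 were above 1 CPM in every library and LUM was at 0 in all. Their sum was 12.1 to 13.8 CPM before PMA, 8.34 to 8.87 CPM after 6 h and 113 to 118 CPM after 24 h. Most of the 24 h sum was COL1A1, at 102 and 97.8 CPM, against 3.41 and 4.08 before PMA. The T cell, B cell, monocyte and endothelial lists had 2 of 7, 0 of 5, 2 of 6 and 1 of 6 markers above 1 CPM in every library.

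As a group the pulse genes took 0.182 to 0.198% of all assigned reads at 0 h, 0.206 to 0.213% after 0.5 h, 0.445 to 0.466% after 1.5 h, 1.14 to 1.21% after 3 h, 1.62 to 1.65% after 6 h and 0.243 to 0.250% after 24 h. The 6 h means ran from 10.0 to 5020.3 CPM with a median of 97.0. Per length, in TPM (transcript shares scaled for length), the highest 6 h levels were those of ACTG1 (γ-actin, 6136 ± 1216 TPM, mean ± SD, n = 2), CXCL8 (1288 ± 105), KLF6 (853 ± 48.4), CXCL3 (823 ± 28.1), HMGCS1 (743 ± 26.1) and AREG (534 ± 23.5). ACTG1 stood alone above the others. CXCL8 came next and was apart from KLF6, whereas the intervals of 1 SD of KLF6 and CXCL3 overlapped. The lowest were COL11A2 (2.51 ± 0.268 TPM), DIP2C (3.12 ± 1.04), PPP2R3A (4.39 ± 0.751) and MMP25 (4.74 ± 0.0778), whose intervals of 1 SD touch or nearly touch. The 2 libraries at 6 h agreed within a ratio of 1.24 for every member, with a median ratio of 1.07.

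**Figure D1:**
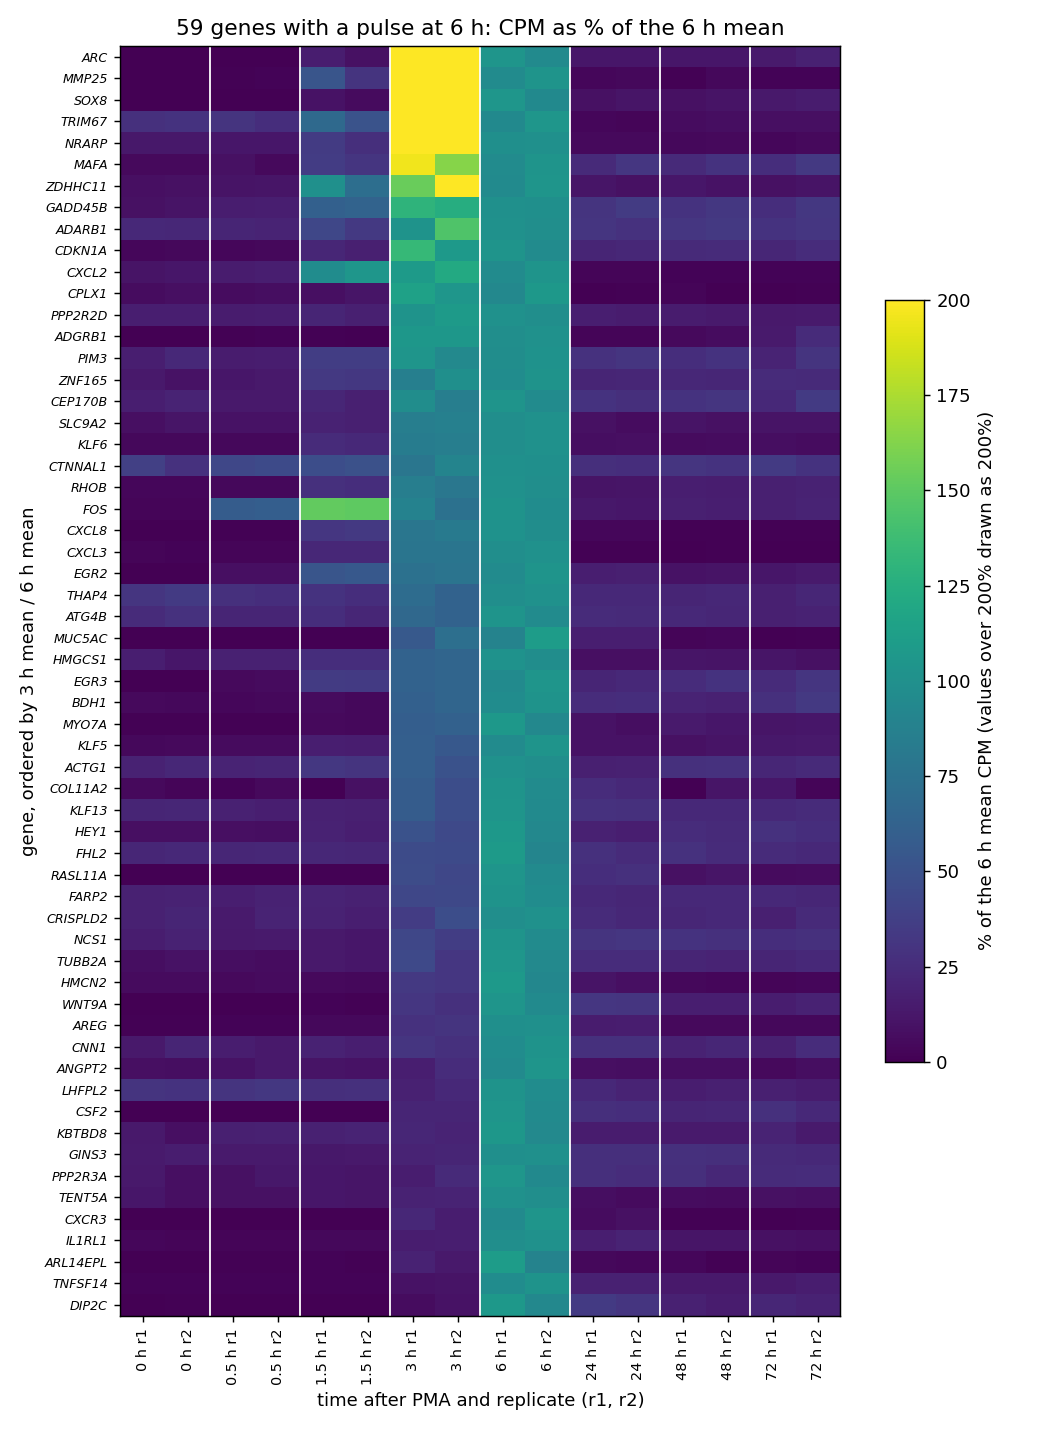
Each row is 1 of the 59 genes and each column 1 of the 16 libraries. Colour gives CPM as a percentage of the gene's 6 h mean, capped at 200%, and rows are ordered by the ratio of the 3 h to the 6 h mean. The columns at 24, 48 and 72 h are dark throughout because the genes were chosen that way, whereas the 3 h columns run from over 200% at the top to under 10% at the bottom.

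The time points that the choice of genes did not use, 0.5, 1.5 and 3 h, show when the levels rose. The 6 h means and the 0, 24, 48 and 72 h levels chose the genes, and they are given as descriptions. The same holds for the edgeR calls of list genes outside the members, at 6 h against 0 h and from 6 to 24 h. The criteria had taken the members out of each list below by these levels, so nothing is read from those counts. Between 0.5 and 1.5 h, 33 of 59 members rose, 0 fell and 26 did not pass (edgeR quasi-likelihood test, Benjamini-Hochberg adjusted p under 0.05 over 17559 genes). Over all genes tested, 4.11% rose and 1.67% fell in that step. The median log2 change was 0.96 for the members and -0.02 for all genes. At an unadjusted p under 0.05, 38 members changed, in either direction, and the DESeq2 Wald test called 34 higher and 0 lower. Leaving out 1 library left 25 to 34 called higher; the calls of HMGCS1, IL1RL1 and RASL11A were lost without any 1 of the 0.5 and 1.5 h libraries, and those of ACTG1, TUBB2A, PPP2R2D, SLC9A2 and MUC5AC without some of them. Between 1.5 and 3 h, 56 members rose and 1 fell, against 13.0% and 12.1% of all genes, and the medians were 1.89 and 0.03. Over the whole interval from 0.5 to 3 h, 57 rose and 1 fell, against 19.4% and 18.0% of all genes. So the 3 h libraries already held nearly every member above its 0.5 h level.

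The 2 members that did not follow at 3 h are LHFPL2 and KBTBD8. LHFPL2 stood at 21.3 and 22.7 CPM after 0.5 h, 19.0 and 19.5 after 1.5 h, 13.1 and 16.1 after 3 h, 72.3 and 68.3 after 6 h and 16.1 and 14.0 after 24 h. Its levels at 3 h were the lowest of these before 6 h, and it fell from 0.5 to 3 h (log2 change -0.33 ± 0.11 SE, adjusted p = 0.0358). That call was lost under several other settings, among them the DESeq2 Wald test and leaving out a library of 0.5 h or replicate 1 of 3 h (edgeR adjusted p between 0.0874 and 0.182). KBTBD8, an adaptor of CUL3 ubiquitin ligases, stood at 16.1 and 16.7, 19.7 and 18.6, 98.5 and 87.5 and 13.9 and 13.9 CPM at 0.5, 3, 6 and 24 h. Its 0.5 and 3 h libraries were close, and the difference did not pass (log2 change 0.49 ± 0.19 SE, adjusted p = 0.0527).

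**Figure D2:**
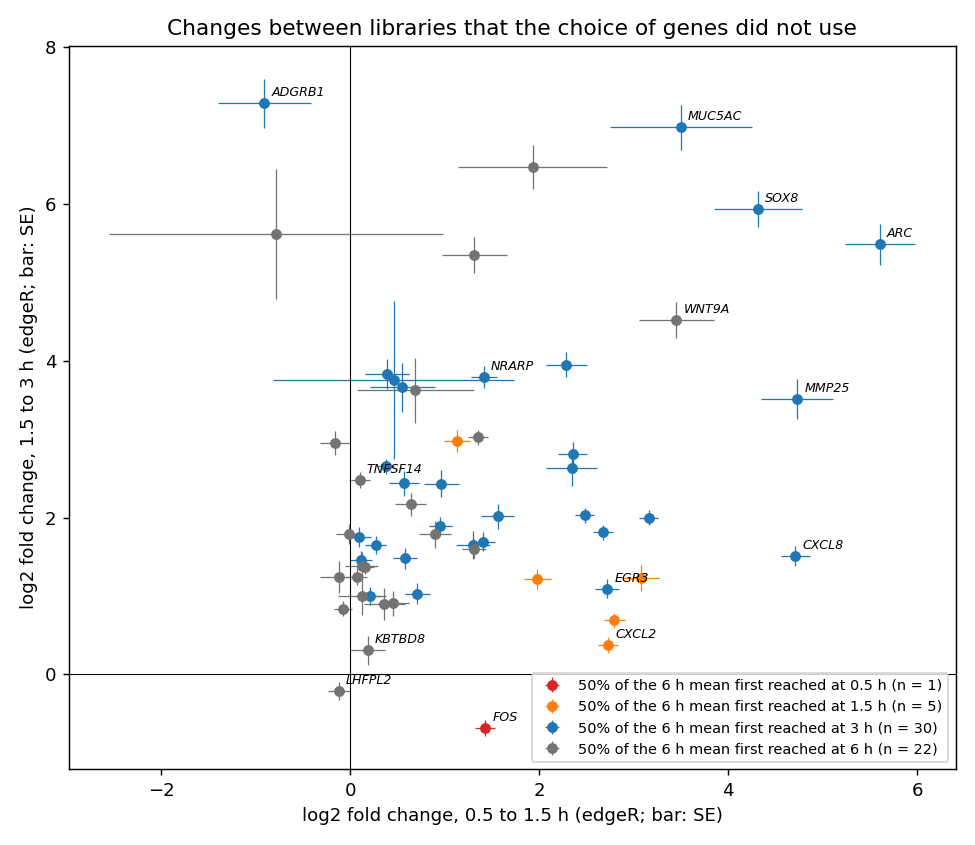
Horizontal axis, log2 fold change from 0.5 to 1.5 h; vertical axis, log2 fold change from 1.5 to 3 h, both from edgeR with SE as bars, for 58 members (CXCR3 is left out because it had 0 reads in both 0.5 h libraries). FOS alone lies clearly below 0 on the vertical axis, CXCL8 and ARC lie far to the right, and TNFSF14 and ADGRB1 sit near or left of 0 on the horizontal axis and well above 0 on the vertical one.

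A comparison set was formed from genes that met the same minimum rise at 6 h (at least 10 CPM, at least 3 times 0 h, both libraries above both 0 h libraries). Their means at 24, 48 and 72 h each stayed at or above the 6 h mean divided by 1.5. The size of the rise at 6 h was not matched between the sets. It held 220 of the 506 protein-coding genes that met the 6 h part. Of these sustained genes, 53 (24.1%) rose and 2 fell from 0.5 to 1.5 h, and 200 (90.9%) rose and 1 fell from 1.5 to 3 h. The members' shares were 55.9% and 94.9%. The median log2 changes of the sustained genes were 0.18 and 1.40. The difference between the sets was not tested, nor was the part that the size of the rise has in it.

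Members differed in when they reached 50% of their 6 h mean. FOS had done so at 0.5 h, 5 members first did at 1.5 h (CXCL2, TRIM67, ZDHHC11, EGR2 and GADD45B), 30 first at 3 h and 23 only at 6 h. In members that peaked before 6 h this measure does not mark the onset of the rise. TRIM67, for example, had means of 7.55 CPM before PMA, 15.8 after 1.5 h, 109 after 3 h and 26.6 after 6 h. The highest of the 8 means was at 1.5 h for FOS, at 3 h for 14 members and at 6 h for 44. In 13 members both 3 h libraries lay above both 6 h libraries, in 42 both 6 h libraries lay above, and in 4 they overlapped. Over all genes tested, both 3 h libraries lay above both 6 h libraries in 39.4% and below in 27.1%, shares from which nothing is read since 6 h chose the members. The median member stood at 8.15% of its 6 h mean at 0.5 h, 18.3% after 1.5 h, 64.0% after 3 h and 18.1% after 24 h.

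The members on the list of immediate-early genes are the transcription factors FOS, EGR2 and EGR3, and ARC, a cytoplasmic protein. At 0.5 h the transcription factors were far above 0 h, whereas ARC was within its 0 h range. FOS, a subunit of AP-1, stood at 6.68 and 6.57 CPM before PMA, 139 and 144 after 0.5 h, 365 and 361 after 1.5 h, 214 and 179.6 after 3 h and 247 and 233 after 6 h. It was at 30.6 and 28.9 CPM after 24 h and 42.9 and 47.1 CPM after 72 h. The 0.5 h libraries were far above 0 h, the 1.5 h libraries were the highest of all, and 3 and 6 h were lower than 1.5 h. FOS rose from 0.5 to 1.5 h (log2 change 1.43 ± 0.11 SE, adjusted p = 1.71e-06) and was the only member that fell from 1.5 to 3 h (log2 change -0.68 ± 0.10 SE, adjusted p = 2.35e-04).

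EGR2 and EGR3, zinc finger factors of the EGR family, started near 0. EGR3 held 0.203 and 0.239 CPM before PMA, 28.8 and 32.6 after 0.5 h, 194 and 190.1 after 1.5 h, 353 and 363 after 3 h and 535 and 583 after 6 h. It was still at 116 and 129.7 CPM after 24 h, 143 and 162 after 48 h and 137 and 175 after 72 h, all far above 0 h. Each step up to 6 h was without overlap between neighbouring times, and EGR3 rose in both tested steps (log2 change 2.72 ± 0.13 SE, adjusted p = 1.51e-08, then log2 change 1.09 ± 0.12 SE, adjusted p = 1.35e-05). EGR2 stood at 0.101 and 0.171, 11.9 and 12.3, 78.4 and 81.4, 111 and 114 and 143 and 154 CPM from 0 to 6 h and at 25.3 and 26.1 CPM after 24 h. At 1.5 h its mean was 53.8% of the 6 h mean, it rose again from 1.5 to 3 h (log2 change 0.69 ± 0.10 SE, adjusted p = 1.32e-04), and both 6 h libraries were above both 3 h libraries.

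ARC, known as a neuronal activity gene, peaked at 3 h and not at 6 h. It stood at 0.338 and 0.718 CPM before PMA, 0.393 and 0.342 after 0.5 h, 22.3 and 12.4 after 1.5 h, 764 and 579 after 3 h and 143 and 131 after 6 h, then at 16.4 and 16.8 CPM after 24 h and 19.4 and 25.2 after 72 h. The 3 h mean was 4.90 times the 6 h mean. ARC had the largest change of all members from 0.5 to 3 h (log2 change 11.09 ± 0.37 SE, adjusted p = 7.32e-11).

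Among the other genes of this list of 29, 27 were tested and 23 are not members. Of those, 18 were higher and 3 lower at 6 h than at 0 h, and 3 were higher and 15 lower at 24 h than at 6 h. Over all genes, 27.8% were higher and 29.4% lower at 6 h than at 0 h, and from 6 to 24 h 30.8% were higher and 25.8% lower. EGR1, for example, had means of 158 CPM before PMA, 2961 after 6 h and 1084 after 24 h, and FOSB had 5.83, 265 and 228. Both fell short of the required 3-fold drop.

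The secreted ligands include 3 chemokines of the CXC family, which attract neutrophils and whose genes lie in the same region of chromosome 4. CXCL8 (interleukin 8) stood at 6.70 and 5.03 CPM before PMA, 14.2 and 17.7 after 0.5 h, 386 and 405 after 1.5 h, 967 and 1010.4 after 3 h and 1258 and 1207 after 6 h. Afterwards it was at 40.6 and 41.9 CPM after 24 h, 14.9 and 14.4 after 48 h and 12.5 and 10.1 after 72 h. Its largest step was from 0.5 to 1.5 h (log2 change 4.71 ± 0.15 SE, adjusted p = 3.44e-10), and the 6 h mean was 210.3 times that at 0 h.

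CXCL3 and CXCL2 ended below their starting levels. CXCL3 held 13.1 and 11.1 CPM before PMA, 118 and 119 after 1.5 h, 413 and 414 after 3 h and 528 and 537 after 6 h, then 6.64 and 6.66 after 24 h, 3.71 and 4.27 after 48 h and 3.87 and 4.07 after 72 h. CXCL2 held 12.4 and 13.8 CPM before PMA, 17.8 and 19.9 after 0.5 h, 114 and 123 after 1.5 h, 127 and 142 after 3 h and 113 and 121 after 6 h, then 2.85 and 2.85 after 24 h and 2.58 and 2.20 after 72 h. CXCL2 was thus level from 1.5 to 6 h, with a small change from 1.5 to 3 h (log2 change 0.38 ± 0.10 SE, adjusted p = 0.0134) that did not pass without replicate 1 of 1.5 h (edgeR adjusted p = 0.137), whereas CXCL3 rose in that step (log2 change 2.00 ± 0.09 SE, adjusted p = 4.33e-09). CXCL1, CXCL2 and CXCL3 are near-identical copies in sequence, so their reads may be split uncertainly. CXCL1 was at 0.204 CPM before PMA and 6.15 CPM after 6 h.

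AREG (amphiregulin, a ligand of the EGF receptor) and TNFSF14 (LIGHT, a TNF family ligand) rose later. AREG stood at 5.25 and 4.45 CPM before PMA, 15.8 and 15.8 after 1.5 h, 111 and 114 after 3 h, 382 and 384 after 6 h and 57.7 and 61.8 after 24 h. TNFSF14 stood at 3.49 and 3.56 CPM before PMA, 3.89 and 3.66 after 1.5 h, 18.0 and 18.8 after 3 h, 179 and 189 after 6 h and 33.8 and 33.8 after 24 h. TNFSF14 did not pass from 0.5 to 1.5 h (log2 change 0.10 ± 0.11 SE, adjusted p = 0.834) but rose from 1.5 to 3 h (log2 change 2.47 ± 0.10 SE, adjusted p = 1.22e-09). Its 3 h mean was 0.10 of the 6 h mean, so most of its rise lay between 3 and 6 h.

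CSF2 (GM-CSF, a myeloid growth factor) held at most 1 read in each library at 0 h and 9.35 and 9.53 CPM after 3 h, 47.5 and 43.8 after 6 h and 12.2 and 12.1 after 24 h. It stayed at 12.7 and 10.5 CPM after 72 h, far above the start. WNT9A, a Wnt ligand, stood at 0.237 and 0.274 CPM before PMA, 4.10 and 1.82 after 1.5 h, 63.0 and 55.2 after 3 h, 207 and 189 after 6 h and 62.0 and 61.7 after 24 h. Its 2 libraries differed at 1.5 h, and it rose in both tested steps (log2 change 3.45 ± 0.40 SE, adjusted p = 1.02e-04, then log2 change 4.52 ± 0.23 SE, adjusted p = 9.07e-09). ANGPT2, a ligand of the TIE2 receptor, stood at 2.71 and 2.27, 5.36 and 8.07, 30.3 and 33.1 and 2.56 and 2.35 CPM at 0, 3, 6 and 24 h. ANGPT2 lies inside MCPH1 on the opposite strand, and the sources used here do not say whether counting used strand.

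Of the list of 50 cytokines, chemokines and TNF ligands, 37 were tested, 5 are members, and of the other 32, 16 were higher and 2 lower at 6 h than at 0 h. From 6 to 24 h 16 of these 32 were higher and 7 lower. Of 24 tested growth factors outside the members, 11 were higher and 7 lower at 6 h. The shares over all genes tested were 27.8% higher and 29.4% lower at 6 h, and 30.8% higher and 25.8% lower from 6 to 24 h.

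**Figure D3:**
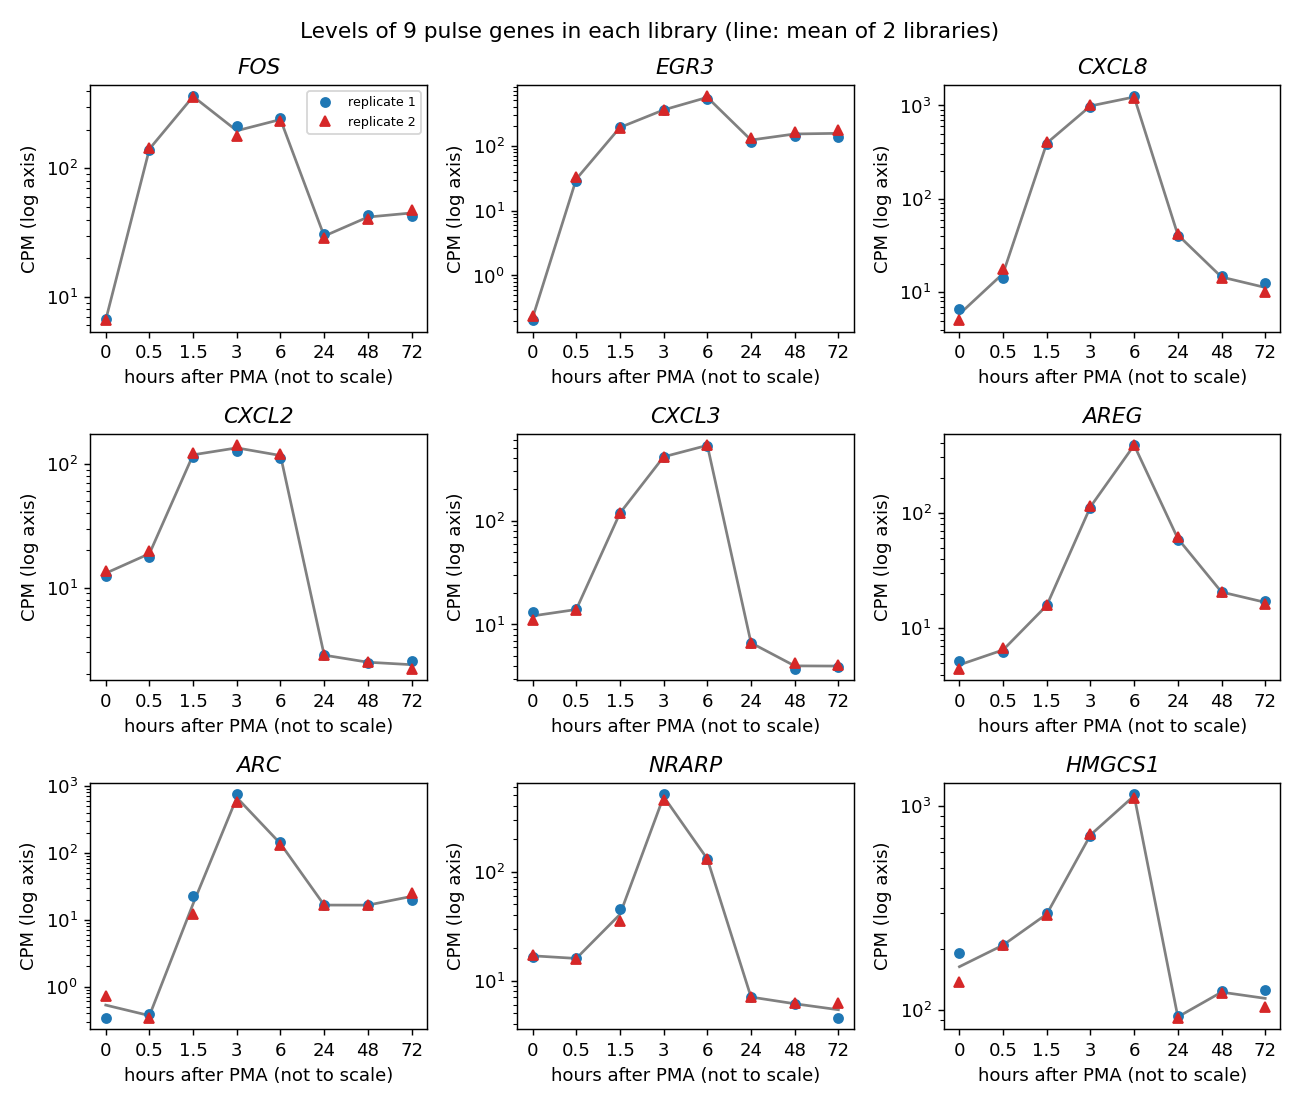
CPM on a log axis in each library for 9 members over the 8 time points, with the line through the mean of 2 libraries. FOS rises first, CXCL2 is level from 1.5 to 6 h, ARC and NRARP peak at 3 h, AREG is highest at 6 h, and CXCL2, CXCL3 and NRARP end below their 0 h values.

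Receptors were few. CXCR3, a chemokine receptor of T cells, had 0 reads in all 0 and 0.5 h libraries and 0.116 and 0.0597 CPM after 1.5 h, 5.44 and 4.01 after 3 h, 23.8 and 25.9 after 6 h and 1.63 and 2.29 after 24 h. Against a limit of 3 reads per library at 0 h, its 6 h mean was at least 243-fold higher. IL1RL1, the receptor for interleukin 33, stood at 2.70 and 2.05 CPM before PMA, 3.05 and 3.43 after 1.5 h, 12.5 and 13.1 after 3 h, 77.2 and 78.5 after 6 h and 13.1 and 15.4 after 24 h. It overlaps IL18R1 on the same strand. ADGRB1, an adhesion receptor, had 2 reads in each 0 h library. It stood at 0.116 and 0.0896 CPM after 1.5 h, 14.5 and 14.6 after 3 h, 13.6 and 13.9 after 6 h and 0.363 and 0.388 after 24 h, so that its whole rise lay between 1.5 and 3 h (log2 change 7.29 ± 0.31 SE, adjusted p = 1.55e-09). Of the other 57 cytokine and growth factor receptors tested, 27 were higher and 12 lower at 6 h than at 0 h. Of all genes tested, 27.8% were higher and 29.4% lower.

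KLF6 was the most abundant transcription factor among the members per length. It held 92.7 and 91.0 CPM before PMA, 101 and 102 after 0.5 h, 563 and 519 after 1.5 h, 1912 and 1955 after 3 h, 2254 and 2299.9 after 6 h and 177 and 183 after 24 h. KLF5, of the same zinc finger family, stood at 1.05 and 1.20, 3.84 and 3.71, 13.9 and 12.7, 22.2 and 24.0 and 2.27 and 2.26 CPM at 0, 1.5, 3, 6 and 24 h. KLF13 changed late, with 20.5 and 19.1 CPM after 1.5 h, 63.8 and 52.0 after 3 h and 115 and 105 after 6 h. From 0.5 to 1.5 h KLF6 and KLF5 rose (log2 change 2.48 ± 0.10 SE, adjusted p = 2.81e-09 for KLF6) and KLF13 did not pass (log2 change 0.09 ± 0.13 SE, adjusted p = 0.862). All 3 rose from 1.5 to 3 h.

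HEY1 and NRARP belong to the Notch pathway: HEY1 is a repressor that Notch induces, and NRARP is a feedback inhibitor. HEY1 stood at 10.2 and 9.75 CPM before PMA, 23.6 and 20.5 after 1.5 h, 62.0 and 54.4 after 3 h, 131 and 114 after 6 h and 22.2 and 20.6 after 24 h. NRARP stood at 16.6 and 17.2 CPM before PMA, 45.5 and 35.5 after 1.5 h, 518 and 459 after 3 h, 130.4 and 131 after 6 h, 7.07 and 7.05 after 24 h and 4.53 and 6.27 after 72 h. NRARP thus peaked at 3 h, at 3.73 times its 6 h mean, and ended below its start, whereas HEY1 peaked at 6 h. NRARP rose in both tested steps, most from 1.5 to 3 h (log2 change 3.79 ± 0.14 SE, adjusted p = 7.42e-10). Outside the members, 14 of 41 tested Notch and Wnt genes were higher and 13 lower at 6 h, and of 33 tested KLF, ID and HES genes 14 were higher and 11 lower. Over all genes tested, 27.8% were higher and 29.4% lower at 6 h than at 0 h, so nothing is read from these counts.

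SOX8 and MAFA, lineage transcription factors of neural crest and pancreatic β cells, also peaked at 3 h. SOX8 went from 1 read in each 0 h library to 1.13 and 0.687 CPM after 1.5 h, 51.7 and 45.6 after 3 h, 12.5 and 11.3 after 6 h and 1.03 and 1.33 after 24 h. MAFA stood at 0.710 and 0.684, 4.68 and 4.15, 26.0 and 21.7, 12.9 and 13.7 and 3.14 and 4.20 CPM at the same times starting from 0 h. The zinc finger gene ZNF165 held 6.23 and 4.43 CPM before PMA, 40.6 and 46.7 after 3 h and 45.6 and 48.2 after 6 h, with overlapping 3 and 6 h libraries. It is the 1 member among 491 tested genes with ZNF symbols. Of the other 490, 102 were higher and 185 lower at 6 h, against 27.8% and 29.4% of all genes tested.

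The growth arrest genes among the members are CDKN1A (p21, an inhibitor of cyclin-dependent kinases) and GADD45B, a stress sensor. CDKN1A stood at 13.7 and 15.7 CPM before PMA, 13.9 and 16.1 after 0.5 h, 80.1 and 65.7 after 1.5 h, 492 and 398 after 3 h and 381 and 353 after 6 h, then at 76.8 and 80.7 after 24 h and 78.3 and 92.8 after 72 h. Both 3 h libraries were above both 6 h libraries, and the late libraries were well above 0 h. GADD45B held 4.23 and 5.27, 7.81 and 8.27, 29.7 and 30.6, 62.6 and 59.9, 48.3 and 48.1 and 14.4 and 16.7 CPM from 0 to 24 h, and it is the member nearest to the 24 h limit. Both genes rose in each tested step (log2 change 2.81 ± 0.15 SE, adjusted p = 1.21e-08 for CDKN1A from 1.5 to 3 h). Of the other 25 tested genes of this list, 18 were higher and 5 lower at 6 h than at 0 h, against 27.8% and 29.4% of all genes. At 24 h 5 were higher and 11 lower than at 6 h, against 30.8% and 25.8%. The criteria had taken the members out of this list by the same levels, so nothing is read from these counts.

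Cytoskeletal genes included the most abundant member. ACTG1 held 945 and 1124 CPM before PMA, 1612 and 1529 after 1.5 h, 3039 and 2539 after 3 h, 5061 and 4979.9 after 6 h and 879 and 938 after 24 h. Its 24 h libraries were below both 0 h libraries, as in 48.7% of all genes tested, and nothing is read from that. It rose in both tested steps (log2 change 0.71 ± 0.13 SE, adjusted p = 0.00504, then log2 change 1.03 ± 0.13 SE, adjusted p = 6.07e-05). The first of these calls was lost without either 0.5 h library or without replicate 1 of 1.5 h (edgeR adjusted p between 0.0534 and 0.0711). Its paralogue ACTB, which shares most of its sequence, had means of 2081 CPM before PMA, 5566 after 6 h and 2887 after 24 h. TUBB2A, a β-tubulin, stood at 39.3 and 51.0, 69.5 and 62.2, 228 and 166, 548 and 491 and 132 and 130.1 CPM at 0, 1.5, 3, 6 and 24 h. Its near-identical copy TUBB2B was at 11.8 CPM before PMA, 33.5 after 6 h and 8.26 after 24 h, so the 2 moved in the same direction and their reads may be shared.

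RHOB, a small GTPase of endosomes, stood at 5.18 and 5.16 CPM before PMA, 42.0 and 39.4 after 1.5 h, 129.7 and 119.7 after 3 h, 154 and 149 after 6 h and 15.7 and 16.8 after 24 h, and most of its rise came before 3 h. CNN1 (calponin) and FHL2 (a LIM domain protein), both known as SRF targets in muscle, rose late: CNN1 held 4.51 and 4.03 CPM after 1.5 h and 23.0 and 24.3 after 6 h, and FHL2 38.4 and 36.5 and 189 and 157. The unconventional myosin MYO7A held 0.551 and 0.479, 24.8 and 25.8, 44.6 and 38.9 and 4.07 and 3.03 CPM at 0, 3, 6 and 24 h. FARP2, a guanine exchange factor, held 42.5 and 40.4 CPM after 1.5 h, 93.1 and 94.3 after 3 h and 223 and 212 after 6 h.

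HMGCS1, the enzyme that makes HMG-CoA for cholesterol synthesis, stood at 190.1 and 137 CPM before PMA, 208 and 209.7 after 0.5 h, 299 and 294 after 1.5 h, 713 and 735 after 3 h and 1153 and 1102 after 6 h. It was at 93.9 and 91.6 CPM after 24 h and 125 and 104 after 72 h, below both 0 h libraries. It rose from 1.5 to 3 h (log2 change 1.48 ± 0.13 SE, adjusted p = 1.78e-06). BDH1, of ketone body metabolism, held 0.610 and 0.513, 7.84 and 8.34, 12.4 and 13.1 and 3.2 and 3.32 CPM at 0, 3, 6 and 24 h. SLC9A2, a sodium-proton exchanger, held 1.39 and 1.95 CPM before PMA, 15.0 and 15.4 after 3 h, 17.4 and 17.8 after 6 h and 1.54 and 1.17 after 24 h.

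Among regulators of signalling, the kinase PIM3 held 28.8 and 38.6, 60.7 and 61.2, 175 and 158, 165 and 172 and 48.7 and 52.4 CPM at 0, 1.5, 3, 6 and 24 h, with overlapping 3 and 6 h libraries. PPP2R2D and PPP2R3A, regulatory subunits of protein phosphatase 2A, differed in time. PPP2R2D held 52.5 and 43.7 CPM after 1.5 h, 257 and 272 after 3 h and 253 and 246 after 6 h, whereas PPP2R3A held 1.40 and 1.29, 1.89 and 2.84 and 12.4 and 11.1. The RAS-like gene RASL11A went from 0.237 and 0.581 CPM before PMA to 36.5 and 33.8 after 3 h and 82.0 and 75.6 after 6 h. NCS1, a neuronal calcium sensor, held 19.2 and 17.4 CPM after 1.5 h and 144 and 135 after 6 h, and CPLX1 (complexin, a SNARE regulator) held 0.846 and 0.992 CPM before PMA, 13.8 and 12.7 after 3 h, 11.3 and 12.9 after 6 h and 0.0605 and 0.129 after 24 h. CPLX1 had the highest ratio of 6 h to 24 h of all members, 127 without the added 0.1 CPM, on 24 h levels of a few reads.

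Extracellular proteins included MUC5AC, a gel-forming mucin, which had 1 read and 0 reads at 0 h and stood at 0.640 and 0.388 CPM after 1.5 h, 49.5 and 65.4 after 3 h, 79.5 and 98.7 after 6 h, 14.9 and 14.7 after 24 h and 0.421 and 0.811 after 72 h. MMP25, a membrane-bound metalloproteinase, stood at 5.35 and 3.08 CPM after 1.5 h, 38.3 and 46.1 after 3 h, 9.71 and 10.5 after 6 h and 0.333 and 0.463 after 24 h, so its 3 h libraries were the highest. COL11A2, a collagen chain, was uneven: it held 0 and 1.01 CPM after 1.5 h, 11.7 and 11 after 6 h and 0 and 1.33 after 48 h, with a library listed at 0 beside one above 1 CPM at both 1.5 and 48 h. CRISPLD2 held 4.47 and 4.94 CPM before PMA, 8.62 and 11.4 after 3 h and 24.0 and 24.5 after 6 h, and hemicentin HMCN2 held 5.58 and 5.59, 32.1 and 30.9 and 104 and 89.8.

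The remaining members act on RNA, proteins or DNA or have no role stated here. TENT5A, a poly(A) polymerase, stood at 10.0 and 10.3 CPM after 3 h and 53.1 and 52.1 after 6 h. ADARB1, an RNA-editing adenosine deaminase, peaked at 3 h (90.2 and 128 CPM, against 89.0 and 87.1 after 6 h). The ubiquitin ligase TRIM67 held 7.34 and 7.76 CPM before PMA, 18.2 and 13.5 after 1.5 h, 102 and 116 after 3 h, 25.3 and 27.9 after 6 h and 0.847 and 0.795 after 24 h, and thus peaked at 3 h and ended far below its start. The palmitoyltransferase gene ZDHHC11 held 18.2 and 13.2 CPM after 1.5 h, 28.0 and 36.5 after 3 h and 17.3 and 19.0 after 6 h; it overlaps BRD9 on the same strand, which stood at 115 CPM after 6 h.

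ATG4B, a protease of autophagy, held 39.6 and 33.4 CPM after 1.5 h, 103 and 96.8 after 3 h and 158 and 148 after 6 h. GINS3, a subunit of the replicative helicase, held 19.9 and 21, 31.5 and 32.6 and 156 and 157 CPM at these times, and almost all of its rise lay after 3 h. THAP4 held 77.4 and 68.9 CPM after 3 h and 109 and 111 after 6 h, CEP170B 114 and 99.0 and 119.9 and 113, CTNNAL1 103 and 117 and 131 and 129.7, ARL14EPL 2.63 and 1.81 and 15.0 and 12.1, and DIP2C 0.629 and 0.981 and 10.7 and 9.38. DIP2C had the lowest share of its 6 h mean at 3 h of all members, 0.0803.

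Whether the members returned to their starting level was read as a description, since 0 and 24 h entered the choice. At 24 h, 29 members stood at 2 or more times their 0 h mean, 4 at 0.5 times or less and 26 between. At 72 h the counts were 28, 5 and 26. In 11 members both 24 h libraries lay below both 0 h libraries, against 48.7% of all genes tested, and nothing is read from that share. Among members with over 3 reads in a 0 h library the highest ratios of the 24 h to the 0 h mean were those of EGR3 (555), WNT9A (242) and EGR2 (189), all on 0 h means under 1 CPM. Among members with a 0 h mean of at least 1 CPM, AREG stood highest at 12.3 times, TNFSF14 at 9.58 times and CXCL8 at 7.04 times. CPLX1, TRIM67, CXCL2 and NRARP stood at 0.103, 0.109, 0.218 and 0.418 times. The 6 h mean of CXCL8 was 29.9 times its 24 h mean, which was above its start, while CXCL2 and CXCL3, which lie within 1 Mb of it, went below theirs.

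**Figure D4:**
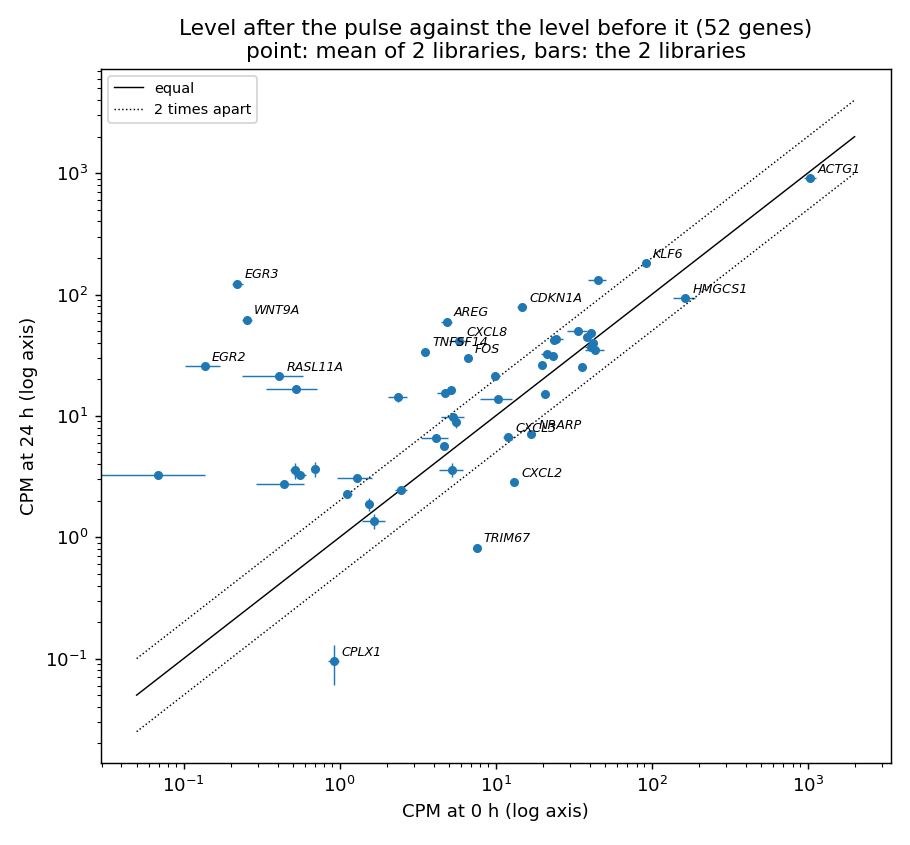
Mean CPM at 24 h against mean CPM at 0 h, both on log axes, for the 52 members with more than 3 reads in at least 1 of the 0 h libraries. Bars span the 2 libraries, the solid line marks equal levels and the dotted lines mark 2 times higher or lower. EGR3, WNT9A and EGR2 lie farthest above the line, and CPLX1, TRIM67 and CXCL2 farthest below it.

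Several of the gene lists held no member. The members are 0.336% of the genes tested, so a count of 0 in a short list says little about that list. None of the 24 ERK feedback phosphatases and Sproutys met the criteria, although 22 were higher and 2 lower at 6 h than at 0 h. From 6 to 24 h 7 of them were higher and 9 lower. For these counts and those below, the shares of all genes were 27.8% higher and 29.4% lower at 6 h. From 6 to 24 h they were 30.8% and 25.8%. SPRY4, an inhibitor of ERK signalling, had means of 62.0 CPM before PMA, 683 after 6 h and 446 after 24 h, and the ERK phosphatase DUSP5 had 4.40, 290.3 and 529.6. None of the 31 tested NF-kappaB genes and targets met them either, and 23 of these were higher and 2 lower at 6 h, then 4 higher and 15 lower at 24 h. That list leaves out CXCL8, CXCL2, CXCL3 and CSF2, which are known NF-kappaB targets and are members, so its count of 0 depends on how it was drawn. NFKBIA, the NF-kappaB inhibitor, had means of 14.6, 67.0 and 25.3 CPM. SPRY4, DUSP5 and NFKBIA were chosen as examples after their values were seen. The lists of TGF-beta genes, integrins, keratins, mRNA decay factors, ephrins, interferon-stimulated genes, eicosanoid genes, the BCL2 family, megakaryocyte genes, erythroid genes and mitotic genes held 0 members as well.

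The members' places in the genome were compared. Within 1 Mb of another member lay 14 of them, in 5 groups, and no background share was computed for that count. On chromosome 4, CXCL8 (chr4:73740506-73743716), CXCL3 (chr4:74036589-74038807), CXCL2 (chr4:74097035-74099293) and AREG (chr4:74445134-74455009, all GRCh38) lie within 1 region. Of the genes between them, CXCL1 had means of 0.204 CPM before PMA, 6.15 after 6 h and 0.461 after 24 h, below the required 10 CPM but with a like time course. EREG had means of 12.8 CPM before PMA, 25.1 after 6 h and 8.84 after 24 h, MTHFD2L had 25.6, 21.6 and 16.9, and PPBP had 0.0171, 0.399 and 0.334. On chromosome 2, FARP2, THAP4 and ATG4B lie within 1 group, and THAP4 and ATG4B overlap head to head on opposite strands, so unstranded reads in the overlap could go to either. STK25, which overlaps FARP2 on the opposite strand, so that the same doubt holds for their reads, had means of 58.0, 60.7 and 37.4 CPM at 0, 6 and 24 h, and BOK, between FARP2 and THAP4, had 1.33, 11.3 and 4.80. The other groups were IL1RL1 with SLC9A2, NCS1 with HMCN2, and ADGRB1 with ARC and MAFA.

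The transcript with the most reads at 6 h, whatever its share, was annotated protein-coding in 56 members. The exceptions were ZDHHC11, PPP2R2D and ADARB1, whose main transcripts are a processed transcript, a nonsense-mediated decay transcript and a processed transcript. In 37 members a single transcript held over 80% of the 6 h reads in both libraries, and in 11 the main transcript held under 50% in at least 1. Of 50 members with enough reads at 0 h, 39 had the same main transcript at 0 and 6 h. In HMCN2 the share of reads in protein-coding transcripts was 1.22% before PMA, 6.31% after 1.5 h, 72.6% after 3 h, 85.2% after 6 h and 10.9% after 72 h. In PPP2R3A it was 41.0% before PMA and 93.4% after 6 h, and in CXCL3 48.6% and 83.6%. These shares are estimates of the quantifier from reads that several transcripts can share, and no test was made of them. The main transcript of the members had a median of 5 exons, against 7 in the sustained genes and 8 in 13323 protein-coding genes averaging 1 CPM or more. Of the members, 33.9% spanned under 10 kb, against 21.4% and 18.6%, while the median spans were 29243, 32774.5 and 33155 bases and the median transcript lengths 2979, 3488.5 and 3135 bases. These differences were not tested.

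The stretches before the start sites were searched next, because promoters of quickly induced genes often carry a TATA box. RefSeq promoter sequences (GRCh38.p14) were found for 44 of 59 members, and the 250 bases before the start were used. The letters TATAAA, searched on the gene's own strand, were found in 10 members (22.7%), in 6.32% of 174 sustained genes and in 3.85% of 10677 genes. Between 45 and 21 bases before the start, where a TATA box usually lies, they were found in 8 members (18.2%), in 7 sustained genes (4.02%) and in 197 of all (1.85%). That window was chosen after the positions were seen. The difference was not tested. The 8 members follow, each from 60 to 11 bases before the start, 5′ to 3′ on the gene's strand, with TATAAA in capitals.
CXCL8 (chr4:73740509-73740558, plus strand): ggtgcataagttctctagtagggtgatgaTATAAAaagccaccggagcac
FOS (chr14:75278768-75278817, plus strand): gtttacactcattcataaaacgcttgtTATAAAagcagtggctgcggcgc
AREG (chr4:74445076-74445125, plus strand): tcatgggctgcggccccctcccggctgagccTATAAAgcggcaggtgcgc
GADD45B (chr19:2476067-2476116, plus strand): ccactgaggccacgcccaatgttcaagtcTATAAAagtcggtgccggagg
TUBB2A (chr6:3157555-3157604, minus strand): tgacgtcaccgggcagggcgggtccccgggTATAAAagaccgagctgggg
HMGCS1 (chr5:43313423-43313472, minus strand): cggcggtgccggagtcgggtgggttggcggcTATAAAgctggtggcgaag
TENT5A (chr6:81752692-81752741, minus strand): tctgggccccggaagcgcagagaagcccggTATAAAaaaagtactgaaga
NRARP (chr9:137302282-137302331, minus strand): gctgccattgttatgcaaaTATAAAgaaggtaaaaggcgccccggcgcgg
The start of the capitals lies 29 to 33 bases before the start site except in NRARP, where it lies 41 before. The 8 genes do not share a time course: FOS was earliest, NRARP peaked at 3 h, and AREG, TUBB2A and TENT5A reached 50% of their 6 h mean only at 6 h. KLF5 and GINS3, the other 2 with the letters, have them 194 and 250 bases before the start.

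**Figure D5:**
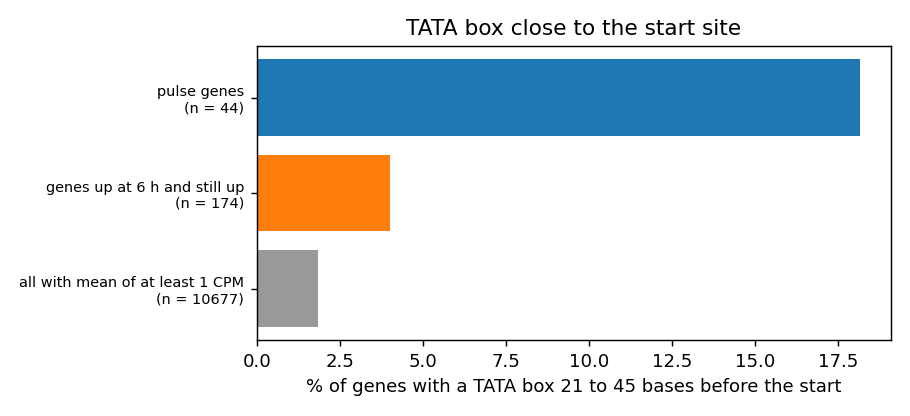
Percentage of genes with TATAAA between 45 and 21 bases before the RefSeq start site, for the 44 members, 174 sustained genes and 10677 protein-coding genes with a promoter in the table. The bars stand at 18.2%, 4.02% and 1.85%.

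TATAAA was 1 of several motifs searched in these windows. The other motifs were closer to their share in the sustained genes, though not all were near it. The EGR motif GCGNGGGCG, on either strand, was in 14 members (31.8%), 26.4% of sustained genes and 13.5% of all. The members' windows were also richer in G and C, with a median of 70.2% against 67.2% and 64.4%, and the part of this in the motif's share was not tested. The kappaB motif was in 3 members (6.82%), 6.90% of sustained genes and 5.78% of all. The AP-1 motif (TGACTCA or TGAGTCA) was in 3 members (6.82%), 6.90% of sustained genes and 2.74% of all, and the CArG box in 2 members (4.55%), 4.60% and 1.01%. For these 3 motifs the members and the sustained genes had nearly equal shares. The CRE motif TGACGTCA was in 3 members (6.82%), 2.87% of sustained genes and 2.90% of all, a difference that rests on a few genes and was not tested. The E-box CACGTG was in 4 members (9.09%), 4.02% of sustained genes and 8.60% of all. The ETS motif CCGGAAGT was in 1 member (2.27%), 4.60% and 7.03%. The SP/KLF motif GGGCGG was in 75% of members, 71.8% and 65.6%, and the RBPJ motif TGGGAA in 15.9%, 13.2% and 19.5%. These were not tested either. The CRE matches were in AREG, PPP2R2D and TUBB2A and the CArG matches in ACTG1 and FHL2. Matches are letters in a window, not shown binding. In CXCL2 and CXCL3 the kappaB motif lies at almost the same place, and the stretches from 100 to 41 bases before the start are shown because the copies share it, with the motif in capitals.
CXCL2 (chr4:74099236-74099295, minus strand): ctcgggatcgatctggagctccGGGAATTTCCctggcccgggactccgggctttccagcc
CXCL3 (chr4:74038730-74038789, minus strand): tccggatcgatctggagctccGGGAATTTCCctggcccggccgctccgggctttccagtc
The motif starts 78 and 79 bases before the start sites. CXCL8 has no match to the motif as searched in its window, and an AP-1 match 137 bases before its start.

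AU-rich letters in the 3′ untranslated region were searched in each gene's protein-coding transcript with most reads over all libraries. This was not always the main transcript at 6 h. TATTTAT was found at least once in 22 of 59 members (37.3%), in 38.4% of sustained genes and in 31.7% of all genes, so the share of the members was near that of the sustained genes. Single members were rich in them: CXCL2 had 8 matches in 721 bases, CSF2 had 7 in 318 bases, CXCL8 had 4 and CXCL3 had 3. The 30 bases with most matches in CXCL2 and CSF2 are shown with TATTTAT in capitals (GENCODE 29, GRCh38), as the densest among the members described.
CSF2 (chr5:132076069-132076098, plus strand): tatttttaaaaTATTTATTTATTTATTTAT
CXCL2 (chr4:74097589-74097618, minus strand): agtcttcTATTTATTTATTTATTTATTTAT

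Since a threshold chose the members, those nearest to it are given. Just inside were CTNNAL1, at 3.00 times its 0 h mean, DIP2C and MMP25, at 10.0 and 10.1 CPM after 6 h, and THAP4, at 3.06 times 0 h. Among those just outside were ZFP36, with means of 77.5 CPM after 6 h and 26.1 after 72 h, CAV1 with 9.73 after 6 h, and MYADM with 411 after 6 h and 142 after 72 h. When the criteria were applied to the replicate 1 libraries alone, 63 genes met them, and 53 of these (84.1%) also met them in replicate 2. Of 56 chosen on replicate 2 alone, 53 (94.6%) met them in replicate 1. With TMM-scaled CPM in place of library shares 85 genes met the criteria, all 59 members among them, and with TPM 53 did, of which 44 are members.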

How the data were processed

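Per the submitters' processing notes the tools included Trim Galore 0.4.3, Salmon, HISAT2 2.1.0, SAMtools 1.9, deepTools 3.0.1, R 3.3.1, DESeq2 and DESeq 1.33.5, and builds hg19 and hg38, with no role given for each. Each of the 16 libraries has a deposited Salmon table of 177456 transcripts, with estimated counts and TPM made by the authors. The estimated counts are reads per transcript, not normalized, and the deposited TPM values are scaled by transcript length and to the same total in each library. Here 167027 transcripts (94.1%) were matched to GENCODE 29 (GRCh38) by identifier and summed per gene. CPM divides a gene's estimated counts by the library's sum, unmatched transcripts included. Symbols and promoters came from RefSeq-based tables.

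Counts were rounded and tested with edgeR 4.0.16 (R 4.3.3, TMM scaling, quasi-likelihood) over all 8 times in 1 fit, on 17559 genes that passed edgeR's low-count filter. All 59 members passed it. On simulated data with known changes from 1.5 to 3 h, the fit recovered 77.4% of 2-fold and 97.9% of 4-fold changes. Of its 180 calls, 6 were false. The simulation used the fit's own dispersions and changed far fewer genes than were called in that step of the data. The 7 members with at most 3 reads in both 0 h libraries are given no fold there, except CXCR3 as a bound. Named genes are the members highest in TPM, those with the highest 6 h to 24 h ratio, those nearest the thresholds, every member on a list, those with the largest tested changes, those with 3 h above 6 h and those with a library at 0. The members and lists were chosen with earlier results of these data known. Alternatives used DESeq2 1.42.0, other scalings, filters, thresholds, a replicate block, a correction for GC content, and each library left out. Counting error and the number of libraries limit the precision.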

Additional observations from a re-analysis of the deposited data

How the results depend on the processing

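The number of genes that met the criteria was 168 with a fold of 2 in place of 3 (all 59 among them) and 34 with a fold of 4. It ranged from 58 to 63 when each library was left out. From 0.5 to 1.5 h the members called higher ranged from 25 to 38 over all alternatives and from 25 to 34 without a library. From 1.5 to 3 h they ranged from 42 to 57, and from 0.5 to 3 h from 43 to 58, the lowest values coming from the filter of 10 counts in every library, which leaves fewer genes tested. The 1 member called lower from 0.5 to 3 h, LHFPL2, gave a count of 0 at an adjusted p under 0.01, with DESeq2 size factors in edgeR, without the low-count filter, with counts derived from TPM and with the DESeq2 Wald test. Leaving out each library gave 0 or 1 there, with 0 without 0.5 h replicate 1, 0.5 h replicate 2 or 3 h replicate 1. With total counts the members called lower from 1.5 to 3 h were 2 in place of 1. The causes were not tested. No value reversed. Of 2967 values of single members under the alternatives, 2882 kept their side of the threshold, 56 lost a call and 29 gained one. Of the called members, 25 of 33, 53 of 57 and 55 of 58 in the 3 steps lost the call under no alternative. The labels do not say that equal replicate numbers share a culture or day. Differences between replicates correlated between -0.118 and 0.211 over 28 pairs of time points, with 14 over 0.1, so a partial pairing is possible and no block was used in the values reported. With the replicate block the members called higher were 33, 56 and 58 in the 3 steps. The number of libraries per time limits what small changes can be called, and members with a few reads per library have wide errors.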

Other observations

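Genes of other types were held to the same criteria. Of 15251 such genes with a matched transcript, 182 reached 10 CPM after 6 h and 6 met all criteria, and all 6 are annotated as pseudogenes. RPL23AP7, a pseudogene of the ribosomal protein gene RPL23A, had means of 14.6 CPM before PMA, 70.7 after 3 h, 105 after 6 h and 29.7 after 24 h. RPL23AP47, of the same parent, had 10.6, 34.4, 58.0 and 12 CPM at these times. RPL19P16 and RPL19P21, pseudogenes of RPL19 on different chromosomes, had 0.134 and 0.204 CPM before PMA, 9.43 and 7.54 after 3 h, 15.2 and 13.0 after 6 h and 0.283 and 0.229 after 24 h. The parent genes did not show a pulse: RPL23A had means of 596 CPM before PMA, 420.3 after 6 h and 276 after 24 h, and RPL19 had 1122, 973 and 708. The other two are CICP27, with 1.35 CPM before PMA, 29.6 after 6 h and 5.60 after 24 h, and a transcribed pseudogene on chromosome 1 without a symbol (ENSG00000228463), with 189.6, 739 and 172 CPM. Reads of near-identical copies can be placed on any of them, and these values were not tested.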
